A study of Mus musculus with 24 samples.

Results

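The 10 genes described here encode members of the 2 mTOR complexes, the TSC complex that holds mTORC1 in check, its target Rheb and the 4E-BP repressors. The kinase mTOR (Mtor) works in mTORC1 together with Raptor (Rptor), which recruits substrates, and in mTORC2 together with Rictor (Rictor). Mlst8 is a subunit that both complexes share, and Deptor is an inhibitor that binds mTOR. The small GTPase Rheb activates mTORC1, and the TSC complex, built from hamartin (Tsc1) and tuberin (Tsc2), keeps Rheb in its inactive form. Active mTORC1 phosphorylates the S6 kinases, which in turn phosphorylate ribosomal protein S6 (rpS6), and it also phosphorylates 4E-BP1 (Eif4ebp1) and 4E-BP2 (Eif4ebp2), which otherwise hold the cap-binding protein eIF4E away from the initiation machinery. In the brain, 4E-BP2 is known as the main 4E-BP. The members were the rows of the count table that carry these 10 symbols. Each symbol had 1 row among 24079 genes, and all 10 had enough reads to enter every comparison.

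The RNA came from the nucleus accumbens (Acb) and dorsal striatum (DS) of rpS6 knockin mice, whose rpS6 carries alanine in place of every serine that can be phosphorylated, and of wild-type littermates. All mice shared a mixed C57Bl/6/Sv129/ICR background, males and females were used, the labels name no treatment, and the age of these mice is not given in the sources used here. The knockin allele is a germline change, so it is not limited to neurons or to the striatum, and each replicate was a pool of mice. From each lysate, total RNA and RNA from heavy polysomal fractions (more than 4 ribosomes per mRNA, per the labels) were sequenced, with 3 replicates in each of 8 groups, 24 libraries in all. The comparisons ask how the mRNAs of the pathway upstream of rpS6 are distributed on polysomes, whether the regions differ, and whether the loss of rpS6 phosphorylation changes their level or loading.

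Libraries held 9280589 to 34703044 reads assigned to genes, and library pairs of the same group had correlations of log2 levels between 0.933 and 0.982. The neuronal RNA Bc1 took 15.2% to 26.1% of reads in whole lysates and 0.897% to 3.85% in heavy polysomal fractions. Levels are given as CPM, the reads of a gene scaled to a fixed library total, after normalization by the trimmed mean of M values (TMM), and levels are compared between genes only per kilobase of transcript. The knockin changes single codons, so counts per gene cannot check it, and Rps6 mRNA itself lay between 269.8 and 488 CPM in all libraries. Markers of medium spiny neurons, the main striatal cell type, summed to 3966 to 7265 CPM. Those of oligodendrocytes summed to 2720 to 5852 CPM and those of astrocytes to 1040 to 3040 CPM, so the RNA was not from neurons alone. Markers of endothelial cells were scarce, at 3.85 to 16.3 CPM in sum.

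The mRNAs of the pathway span a wide range of coding lengths, from 354 bases (Eif4ebp1), 363 bases (Eif4ebp2) and 555 bases (Rheb) to 4008 bases (Rptor), 5127 bases (Rictor), 5229 bases (Tsc2) and 7650 bases (Mtor). Between them lie Mlst8 (981 bases), Deptor (1230 bases) and Tsc1 (3483 bases). The median over all genes matched to a coding length was 1.215 kb. In GRCm38.p6, the build the counts were made on, Mtor lies at chr4:148448582-148557685 (plus strand), Rptor at chr11:119602905-119899591 (plus), Rheb at chr5:24802823-24842361 (minus) and Eif4ebp2 at chr10:61428491-61452790 (minus). Tsc2 (chr17:24595816-24632676) and Mlst8 (chr17:24473550-24479114) are both on the minus strand of chromosome 17, and Rictor (chr15:6708349-6800401) and Deptor (chr15:55112317-55259273) are both on the plus strand of chromosome 15. Tsc1 lies at chr2:28640993-28691172 (plus) and Eif4ebp1 at chr8:27260327-27275656 (plus). Exons of Mlst8, Tsc2, Deptor and Rptor overlap other genes by 997, 693, 303 and 84 bases, in each case on the opposite strand, which the stranded counting keeps apart.

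Translation of an mRNA starts at its start codon, and the bases around it are shown for the 4 mRNAs on which the polysome results turn. Each sequence is the mRNA strand of the GENCODE M21 principal transcript, with 9 bases before the start codon, the start codon in capitals and 8 bases after it.
Rheb: gccaccaagATGcctcagtc
Eif4ebp2: gtcggagccATGtccgcgtc
Rptor: cctcccctgATGgagtcgga
Mtor: cagggcaagATGcttgggac
A purine 3 bases before the start codon is part of the usual initiation context, and 9 of the 10 members carried one, all but Rptor, against 85.7% of 18988 genes. A G just after the start codon was present in 5 of 10 members and in 50.3% of these genes. Rheb and Eif4ebp2, which lay on opposite sides in the polysome comparison, both had the purine and lacked the G.

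Rheb had the highest level per kilobase of the 10 mRNAs in both regions. In wild-type whole lysates it reached 51.8 CPM per kb in the Acb and 51.1 in the DS, and none of its replicates came near those of the next gene. Tsc2 (12.5 CPM per kb in the Acb, 12.8 in the DS) and Tsc1 (11.1 and 11.3) followed, with overlapping replicates between them in the Acb. Mlst8 (9.33 and 11.8) came after Tsc1 in the Acb and between Tsc2 and Tsc1, overlapping both, in the DS. Mtor followed at 8.96 and 9.36 CPM per kb. The specific partners of the complexes were closer together, with Rptor at 6.11 and 6.43 CPM per kb and Rictor at 5.24 in both regions, and their replicates overlapped in the Acb. Deptor stood at 2.13 CPM per kb in the Acb and 6.05 in the DS.

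Of the 4E-BPs, Eif4ebp2 was the one clearly detected. Its wild-type lysate level was 8.51 CPM per kb in either region with a transcript of 1422 bases, but the annotation also has a principal transcript of 5784 bases, with which the mean over both regions falls from 8.51 to 2.09. The same holds in part for Mlst8, whose principal transcripts run from 1574 to 3855 bases and give 22.6 to 9.22 CPM per kb, so the places of these 2 genes in the order are uncertain. Eif4ebp1 had 0 to 94 reads per library (median 16) and 0 reads in 3 of 24 libraries, all of them whole lysates. With a floor of that size no difference in Eif4ebp1 was detectable at this depth, and its fold changes had SEs between 0.93 and 2.23 on the log2 scale.

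**Figure D1:**
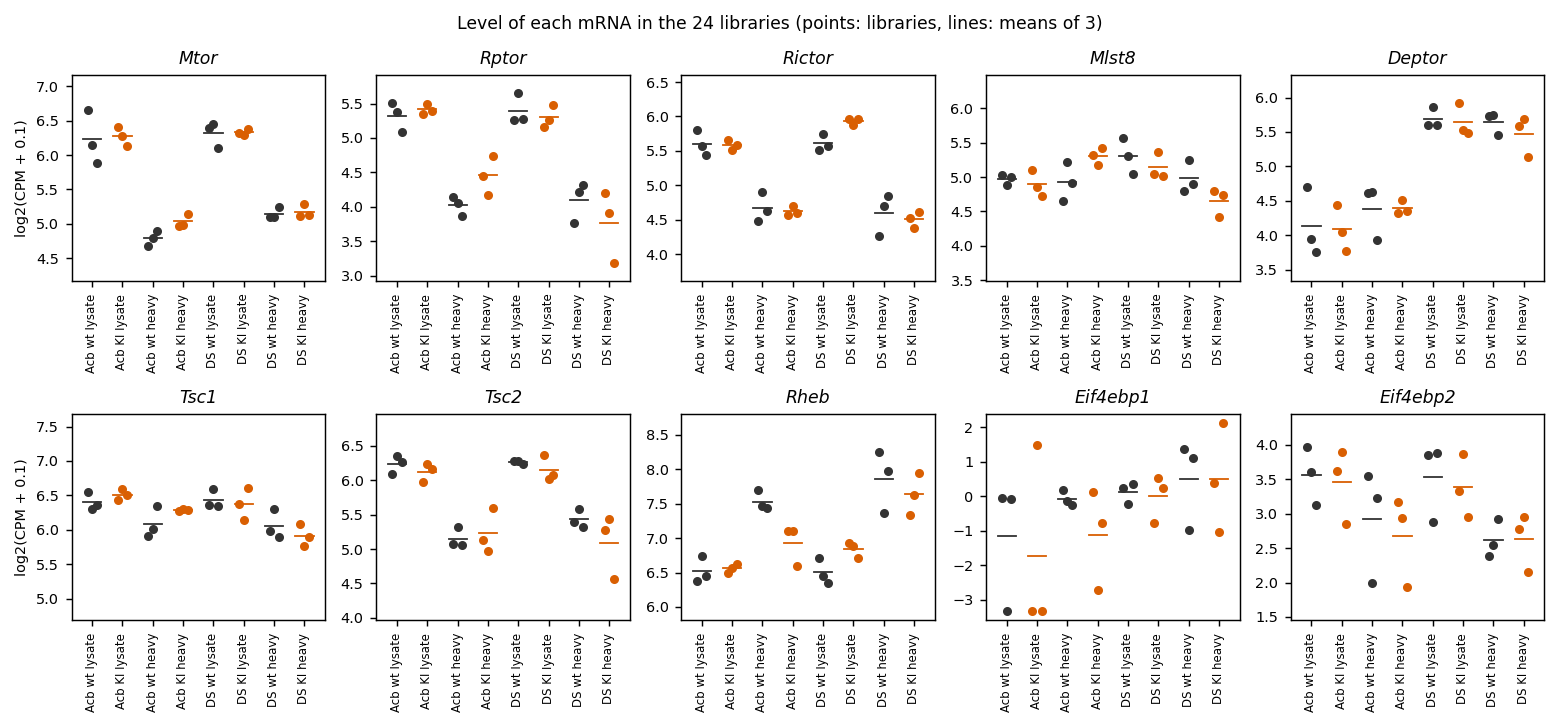
Level of each of the 10 mRNAs in the 24 libraries, as log2 of CPM plus a pseudocount of 0.1, by region, genotype and kind of RNA (points are libraries, lines are means of 3, black is wild-type and orange is knockin, and each panel has its own axis). Mtor, Rptor, Rictor and Tsc2 sit lower in every heavy polysomal group than in the lysates, Rheb sits higher, Deptor separates by region, and Eif4ebp1 scatters near 0 reads.

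On heavy polysomes, the mRNAs of the large subunits were under-represented relative to whole lysates and that of Rheb was over-represented. A value below 0 here means a smaller share of the heavy polysomal library than of the lysate library, not a measured number of ribosomes per mRNA. In wild-type Acb, 4 of 10 members were lower in heavy polysomal fractions and 1 was higher, where 25.9% of 16043 genes passed the test in either direction, 13% higher and 12.9% lower (edgeR quasi-likelihood test, Benjamini-Hochberg adjusted p under 0.05). In knockin Acb, 4 were lower and none higher, against 17.2% of all genes (7.7% higher and 9.5% lower). In wild-type DS 5 were lower and 1 higher, against 24.3% (12.8% higher and 11.5% lower). In knockin DS 6 were lower and 1 higher, against 28.6% (13.8% higher and 14.8% lower). The median log2 fold change of the 10 mRNAs was -0.48, -0.82, -0.60 and -0.67 in these 4 comparisons, against 0.03, 0.01, 0.00 and 0.03 over all genes. The knockin Acb median rested in part on 1 replicate and was -0.45 without knockin Acb replicate 2, where 7.12% of all genes passed. With all replicates it lay midway between Eif4ebp1 (-0.86 ± 1.60) and Eif4ebp2 (-0.79 ± 0.36). Eif4ebp1 was barely detected, with 0, 25 and 0 reads in the 3 knockin Acb lysates, so this median is uncertain. Mtor, Rptor, Rictor and Tsc2 were called lower in each of the 4 comparisons. The other lower calls were Eif4ebp2 in wild-type DS and Mlst8 and Tsc1 in knockin DS.

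Mtor, the catalytic subunit of both complexes, measured 101, 70.4 and 59.1 CPM in the 3 wild-type Acb lysates and 25.6, 27.5 and 29.7 CPM in the corresponding heavy polysomal fractions. The knockin Acb gave 85.0, 77.6 and 70.3 CPM in lysates and 31.3, 31.7 and 35.3 CPM in heavy polysomal fractions. Every heavy polysomal library of both genotypes and regions lay below every lysate library, at 25.6 to 39.0 CPM against 59.1 to 101 CPM. Within single combinations of region and genotype, 34.1% to 40% of all genes had no overlap between heavy polysomal fractions and lysates. The log2 fold change was -1.53 ± 0.19 (SE) in wild-type Acb (adjusted p = 1.37e-06, edgeR), -1.27 ± 0.18 in knockin Acb, -1.18 ± 0.18 in wild-type DS and -1.19 ± 0.16 in knockin DS.

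Rptor, the substrate-recruiting subunit of mTORC1, measured 45.4, 41.5 and 34.1 CPM in wild-type Acb lysates and 17.6, 16.5 and 14.5 CPM in heavy polysomal fractions. Across the study its lysates spanned 34.1 to 50.5 CPM and its heavy polysomal fractions 8.99 to 26.6 CPM, again without overlap. The share of all genes without overlap over all 24 libraries together was not computed. The change was -1.37 ± 0.20 in wild-type Acb, -0.97 ± 0.22 in knockin Acb, -1.29 ± 0.22 in wild-type DS and -1.53 ± 0.23 in knockin DS, with adjusted p-values from edgeR between 2.66e-07 and 0.00237. Without knockin Acb replicate 2 the knockin Acb call was lost (adjusted p = 0.0722), as was that of Tsc2 (adjusted p = 0.084).

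Rictor, which defines mTORC2, measured 43.2 to 62.1 CPM in lysates and 19.1 to 29.7 CPM in heavy polysomal fractions. Its log2 fold changes were close in 3 comparisons, at -0.99 ± 0.19 (wild-type Acb), -0.99 ± 0.20 (knockin Acb) and -0.99 ± 0.20 (wild-type DS), and it stood at -1.46 ± 0.18 in knockin DS. The knockin DS is also where its lysate level was highest, at 62.1, 58.5 and 62.0 CPM against 45.7, 53.4 and 47.3 CPM in wild-type DS. Mlst8, shared by both complexes, passed the test only in knockin DS among the 4 comparisons (-0.53 ± 0.20, adjusted p = 0.0402, edgeR). That call was lost when any of the 3 knockin DS replicates was left out. In knockin Acb Mlst8 stood at 0.39 ± 0.21 (adjusted p = 0.216, edgeR). Its heavy polysomal fractions there held 36.1 to 42.9 CPM and its lysates 26.4 to 34.4 CPM. These did not overlap, as for 34.1% of all genes in that comparison. Deptor, the inhibitor of both complexes, had values from -0.21 ± 0.18 in knockin DS to 0.27 ± 0.25 in knockin Acb and passed the test nowhere.

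The 2 subunits of the TSC complex had different values, and the difference between them was not tested. Tsc2 also has the longer coding sequence (5229 against 3483 bases), which is taken up below. Tsc2, the subunit that acts on Rheb, measured 62.7 to 82.6 CPM in lysates and 23.5 to 48.4 CPM in heavy polysomal fractions, with log2 fold changes of -1.14 ± 0.17 and -0.89 ± 0.20 in wild-type and knockin Acb and -0.83 ± 0.17 and -1.07 ± 0.18 in wild-type and knockin DS. Tsc1, its stabilizing partner, measured 70.2 to 97.3 CPM in lysates and 54.2 to 80.9 CPM in heavy polysomal fractions, which overlap. Its values ran from -0.25 ± 0.17 to -0.50 ± 0.16 and passed the test in knockin DS alone (adjusted p = 0.0116, edgeR), a call lost without knockin DS replicate 2 or 3 (adjusted p = 0.0609 and 0.198). Per kilobase, the level of Tsc1 over that of Tsc2 within a library had a median of 0.916 in 12 lysates and 1.33 in 12 heavy polysomal fractions, and it was higher in the heavy polysomal fraction than in its own lysate in 12 of 12 pairs. For Rptor over Rictor the medians were 1.15 and 1.01, and the ratio was higher in the heavy polysomal fraction in 0 of 6 wild-type and 4 of 6 knockin pairs, a split that was not tested.

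Rheb was the one member that passed the test as more abundant on heavy polysomes. In wild-type Acb it measured 83.1, 107 and 87.1 CPM in lysates and 207, 177 and 172 CPM in heavy polysomal fractions. In wild-type DS the lysates gave 105, 87.0 and 81.7 CPM and the heavy polysomal fractions 306, 165 and 250 CPM. The knockin Acb gave 90.1, 94.6 and 98.4 CPM in lysates and 138, 138 and 96.4 CPM in heavy polysomal fractions, where the last library fell within the range of the lysates. Rheb rose by 0.95 ± 0.15 in wild-type Acb (adjusted p = 3.02e-05, edgeR), by 1.40 ± 0.18 in wild-type DS (adjusted p = 1.16e-06) and by 0.77 ± 0.14 in knockin DS (adjusted p = 2.41e-05). In knockin Acb the value was 0.37 ± 0.17 (adjusted p = 0.149), and without knockin Acb replicate 3 it was 0.54 and passed the test (adjusted p = 0.0296).

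Eif4ebp2, the repressor of eIF4E that predominates in brain, went the opposite way to Rheb although both have short coding sequences. It measured 14.4, 7.23 and 14.7 CPM in wild-type DS lysates and 5.11, 5.73 and 7.48 CPM in heavy polysomal fractions, so that 1 lysate library lay among the heavy polysomal ones. The log2 fold change there was -0.98 ± 0.36 (adjusted p = 0.0426, edgeR), and the call was lost without wild-type DS replicate 1 or 3 (adjusted p = 0.306 and 0.172). In the other comparisons it was -0.61 ± 0.34 (wild-type Acb), -0.79 ± 0.36 (knockin Acb) and -0.81 ± 0.34 (knockin DS), none past the threshold.

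**Figure D2:**
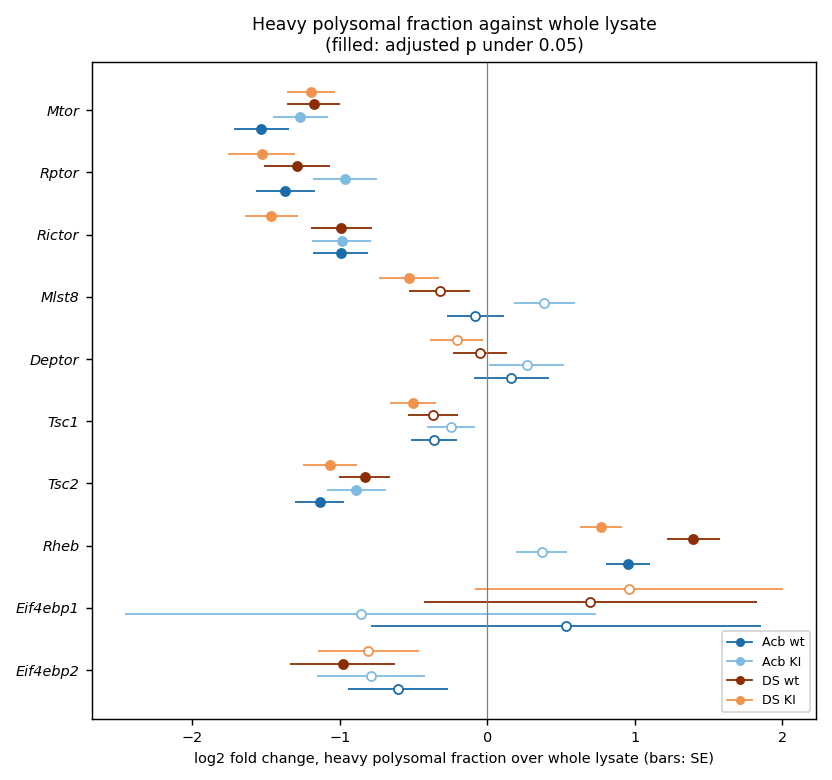
Log2 fold change of the 10 mRNAs in heavy polysomal fractions over whole lysates, with SE bars, for the 4 combinations of region and genotype (n = 3 libraries a group). Filled points passed the test. Mtor, Rptor, Rictor and Tsc2 are filled and below 0 in all 4 combinations, and Rheb is filled and above 0 in all but the knockin Acb.

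Coding length moved with this loading over all genes, and the members were no exception. Across genes, Spearman's rho between coding length and the log2 fold change of heavy polysomal fractions over lysates was -0.47 in wild-type Acb (14991 genes), -0.25 in knockin Acb, -0.50 in wild-type DS and -0.55 in knockin DS. Over the 10 members, with the barely detected Eif4ebp1 among them, it was -0.81, -0.65, -0.67 and -0.73. These correlations are across genes of the same libraries, and genes are not independent replicates. In wild-type Acb, genes with over 3 kb of coding sequence had a median of -0.62 (2058 genes, quartiles -1.02 and -0.19), those of 0.6 to 3 kb a median of 0.09 and shorter ones a median of 0.49. In knockin Acb the shorter genes had a median of -0.07.

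Each library's trend on coding length was therefore removed in an alternative fit, which sets each mRNA against others of like length. Rptor was the only member that passed the test in all 4 comparisons of this fit, at -0.86, -0.60, -0.66 and -0.87 in wild-type Acb, knockin Acb, wild-type DS and knockin DS. Eif4ebp2 was lower in 3 of 4, at -1.06 (adjusted p = 0.018), -1.47 (adjusted p = 0.00235) and -1.41 (adjusted p = 0.003) in wild-type Acb, wild-type DS and knockin DS, and stood at -0.68 (adjusted p = 0.208) in knockin Acb. Rheb was higher in both wild-type regions, at 0.48 (adjusted p = 0.0179) in the Acb and 0.87 (adjusted p = 4e-05) in the DS, and in the knockin it stood at 0.22 (adjusted p = 0.361) and 0.21 (adjusted p = 0.301). Mtor remained past the threshold in the Acb of both genotypes (-0.69 and -0.52) but not in the DS (-0.23 and -0.22). Mlst8 was lower in both DS genotypes (-0.59 in wild-type, adjusted p = 0.0383, and -0.80 in knockin, adjusted p = 0.00308) and stood at -0.40 and 0.07 in the Acb. Rictor kept 1 of its 4 calls (-0.64 in knockin DS), Tsc2 kept 1 (-0.50 in wild-type Acb), and Tsc1 ranged from 0.04 to 0.20 with no call. All adjusted p-values here are from edgeR over all genes with a coding length, and the fit called 17.0%, 12.7%, 15.5% and 16.3% of those genes.

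**Figure D3:**
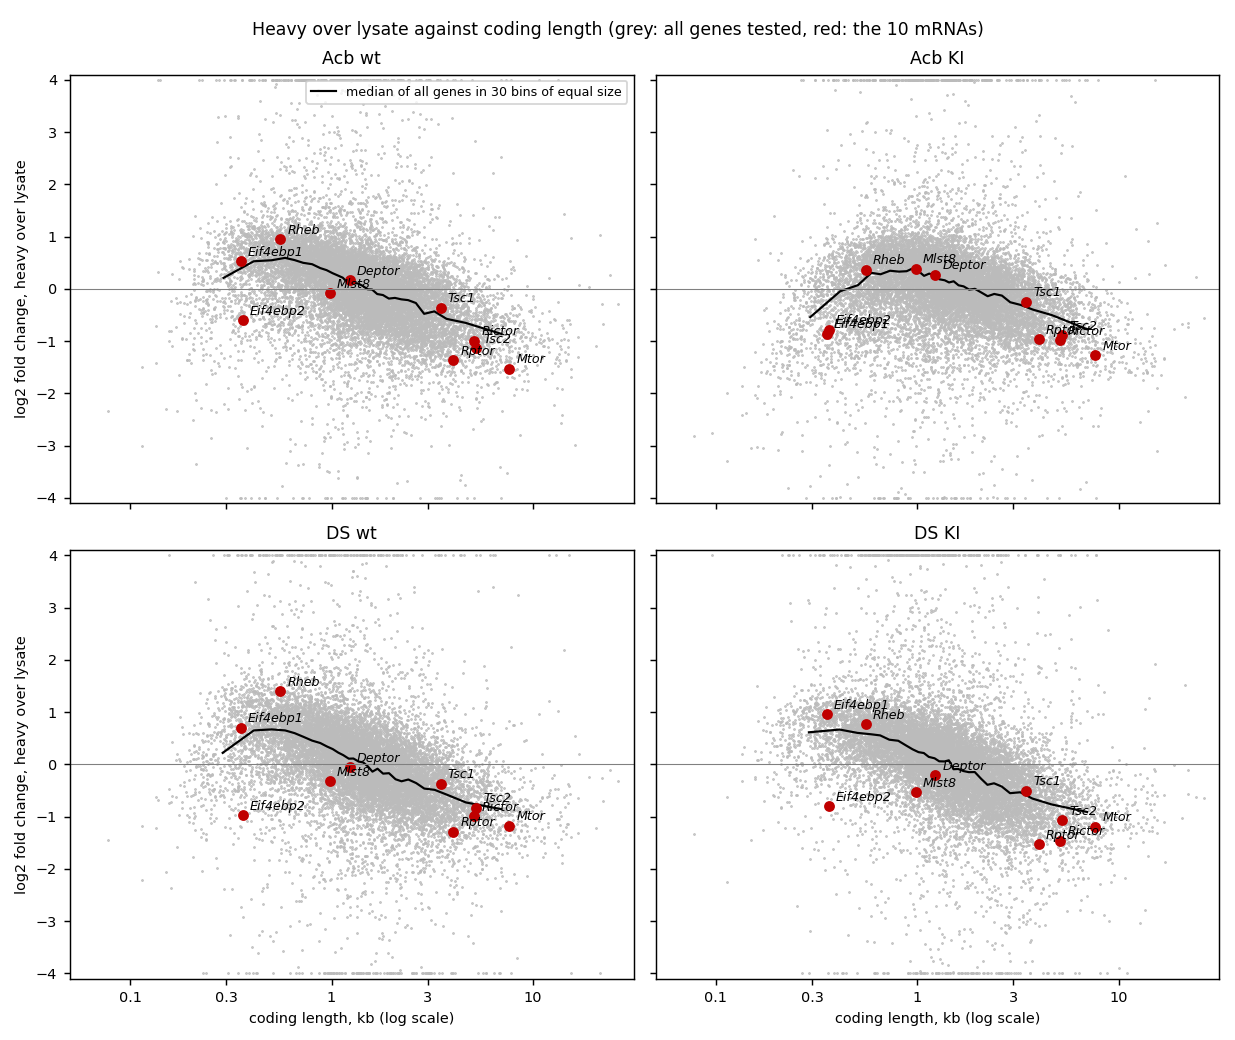
Log2 fold change in heavy polysomal fractions over whole lysates (y axis, values beyond 4 drawn at the edge) against coding length in kb (x axis, log scale) for all genes tested, in grey, and the 10 members, in red, in each region and genotype. The black line is the median of all genes in bins of equal size. Rptor lies below the line in every panel, Eif4ebp2 lies below and Rheb above it in both wild-type panels, and Mtor lies close to it in the DS.

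Between genotypes, none of the 10 mRNAs passed the test in any of the 4 comparisons of knockin with wild-type mice (edgeR). The background was 0% of 16227 genes in Acb heavy polysomal fractions, 0.0065% in Acb lysates, 0.044% in DS heavy polysomal fractions (0.0315% higher and 0.0126% lower) and 0.122% in DS lysates (0.032% higher and 0.0897% lower). At an unadjusted p under 0.05 there were 3 members (Rheb, Rptor and Mlst8) in Acb heavy polysomal fractions, where 21.7% of all genes were below that value, and 2 (Rheb and Rictor) in DS lysates, against 9.07% of all genes. The Acb lysates and DS heavy polysomal fractions had 0. DESeq2 called 0 members in Acb lysates, DS heavy polysomal fractions and DS lysates, against 0.0065%, 0.107% and 0.609% of all genes. In Acb heavy polysomal fractions it called 1 member, against 6.72% of all genes.

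Rheb was that member. On Acb heavy polysomes the 3 wild-type libraries gave 207, 177 and 172 CPM and the 3 knockin libraries 138, 138 and 96.4 CPM, with no overlap, as for 25% of 16227 genes in this comparison. The log2 fold change was -0.55 ± 0.17, with an adjusted p of 0.118 in the edgeR test and of 0.0258 with DESeq2. In Acb lysates the same gene stood at 0.02 ± 0.15. With the trend on coding length removed the value in heavy polysomal fractions was -0.18 (adjusted p = 0.566, edgeR). Over all genes, the knockin effect in these fractions rose with coding length (Spearman's rho 0.41 over 15152 genes), and among the members rho was 0.60.

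The other members had values on both sides of 0 on Acb heavy polysomes, none past the edgeR threshold. Rptor had 17.6, 16.5 and 14.5 CPM in wild-type and 21.8, 18.0 and 26.6 CPM in knockin libraries, a log2 fold change of 0.49 ± 0.20 (adjusted p = 0.182, edgeR). Mlst8 stood at 0.41 ± 0.19, Mtor at 0.28 ± 0.17, Tsc1 at 0.23 ± 0.16, Tsc2 at 0.14 ± 0.19, Deptor at 0.01 ± 0.21 and Rictor at -0.02 ± 0.18. Eif4ebp2 stood at -0.28 ± 0.36, and at 0.33 with the trend on coding length removed, and Eif4ebp1 at -0.77 ± 1.01. In DS heavy polysomal fractions Rptor and Mlst8 had values of the opposite sign, at -0.29 ± 0.28 and -0.33 ± 0.23. In DS lysates, Rheb was at 122, 118 and 105 CPM in knockin and 105, 87.0 and 81.7 CPM in wild-type libraries, and Rictor stood at 0.30 ± 0.15 (adjusted p = 0.383 for Rheb and 0.547 for Rictor, edgeR).

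**Figure D4:**
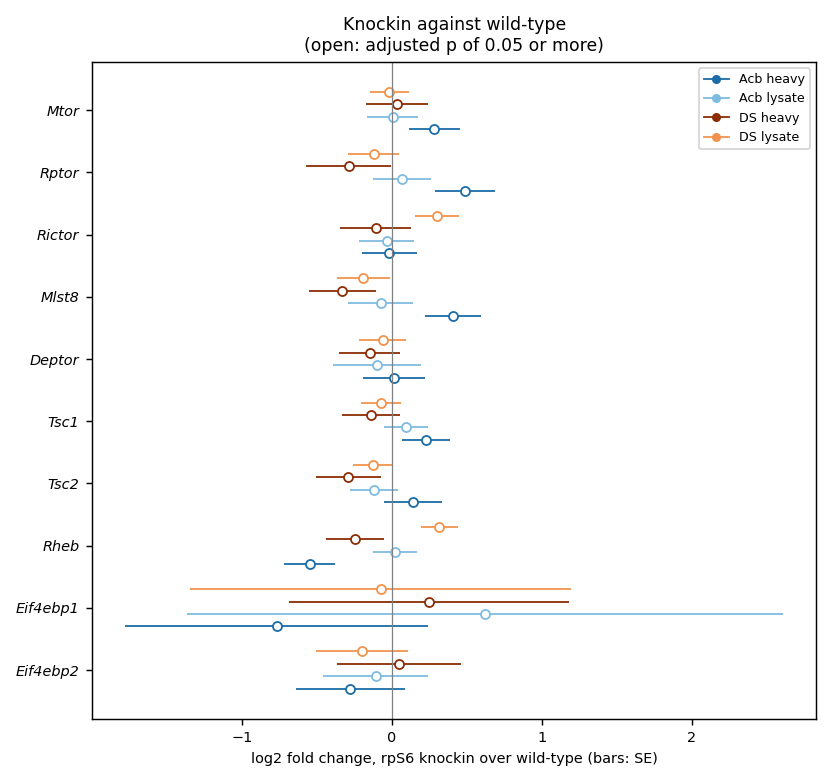
Log2 fold change of the 10 mRNAs in rpS6 knockin over wild-type mice, with SE bars, in heavy polysomal fractions and whole lysates of both regions (n = 3 libraries a group). All points are open, since none passed the edgeR test. Rheb in Acb heavy polysomal fractions (-0.55) is the lowest value outside Eif4ebp1, whose SE bars span most of the axis.

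The change in translational efficiency, the knockin effect on heavy polysomes minus that in lysates, passed the test for no member in either region. The same test called 0% of 16687 genes in the Acb and 0% of 16544 in the DS. Rheb had the lowest p of the 10 in both regions, at -0.58 ± 0.22 in the Acb (unadjusted p = 0.0139, adjusted p = 0.321, edgeR) and -0.59 ± 0.23 in the DS (unadjusted p = 0.0138, adjusted p = 1, edgeR). It was the only member under an unadjusted p of 0.05 in each, where 11.9% of all genes in the Acb and 4.9% in the DS were below that value. With the trend on coding length removed it stood at -0.28 in the Acb and -0.65 in the DS (adjusted p = 0.714 and 0.713, edgeR). Without that removal, the knockin effect on Rheb in the DS was -0.24 ± 0.19 on heavy polysomes and 0.32 ± 0.12 in lysates. In the Acb the 2 values were -0.55 ± 0.17 and 0.02 ± 0.15, so the regions differed in where the change lay. Measured lysate by lysate, the heavy polysomal over lysate ratio of Rheb was 2.49, 1.65 and 1.98 in wild-type Acb and 1.53, 1.46 and 0.980 in knockin Acb, and it was 2.92, 1.89 and 3.06 in wild-type DS and 1.33, 1.66 and 2.35 in knockin DS. DESeq2 called no member in either test, and 0% of all genes in each.

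Whether the knockin effect differed between regions was tested directly. On heavy polysomes no member passed (background 0.00592% of 16880 genes). At an unadjusted p under 0.05, reached by 13.8% of all genes, there were 2 members, Mlst8, at 0.75 ± 0.28 (adjusted p = 0.23, edgeR), and Rptor, at 0.79 ± 0.36 (adjusted p = 0.317, edgeR), both on the side of a higher knockin effect in the Acb. In lysates no member passed (background 0.00611%) and none was under that unadjusted p. In wild-type mice, the loading on heavy polysomes did not differ past the threshold between the regions for any member (background 0%), and Rheb had the lowest p, at -0.47 ± 0.24 (unadjusted p = 0.0551, adjusted p = 0.9999, edgeR). DESeq2 called 0 members in these 3 tests, against 1.4%, 0% and 0.00599% of all genes in the order given.

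Between regions, Deptor was the one member that differed in all 4 comparisons. Wild-type lysates held 25.9, 15.4 and 13.4 CPM of Deptor mRNA in the Acb and 48.6, 58.0 and 48.6 CPM in the DS. Wild-type heavy polysomal fractions held 24.3, 24.6 and 15.1 CPM in the Acb and 53.1, 53.3 and 43.7 CPM in the DS. The knockin libraries showed the same split, with 13.5 to 21.5 CPM in Acb lysates against 44.6 to 60.4 CPM in DS lysates, and 20.0 to 22.7 CPM against 35.1 to 51.2 CPM in heavy polysomal fractions. The regions did not overlap in any of the 4 settings, where 26.5% to 36.4% of all genes did not overlap either.

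Deptor fell by 1.46 ± 0.21 on the log2 scale in the Acb against the DS in wild-type lysates (adjusted p = 1.84e-06, edgeR), by 1.52 ± 0.21 in knockin lysates (adjusted p = 1.32e-06), by 1.22 ± 0.21 in wild-type heavy polysomal fractions (adjusted p = 0.00153) and by 1.07 ± 0.20 in knockin heavy polysomal fractions (adjusted p = 0.000816). It was the 1 member of 10 called in wild-type lysates, where 12.7% of 15557 genes passed (6.54% higher and 6.15% lower in the Acb). The same was true of knockin lysates (10.9%, with 4.84% higher and 6.03% lower) and of wild-type heavy polysomal fractions (8.15%, with 4.72% higher and 3.43% lower). In bulk tissue, fewer cells that express a gene and less of its RNA per cell cannot be told apart. The DS libraries also held more of the markers of cortical excitatory neurons, at 741 to 1013 CPM in sum against 65.3 to 208.9 CPM in the Acb, with 6 of 6 markers lower in the Acb in all 4 comparisons and none of them at 0. Astrocyte markers were higher in the Acb, with 5, 3, 4 and 5 of 7 called in wild-type lysates, knockin lysates, wild-type and knockin heavy polysomal fractions. In the same order, 6, 2, 6 and 3 of 7 microglia markers and 4, 3, 2 and 3 of 7 oligodendrocyte markers were higher in the Acb, with 1 oligodendrocyte marker lower in the last. The part of these cell types in the Deptor values was not tested.

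In knockin heavy polysomal fractions 3 of 10 members differed between regions, against 18.6% of 16108 genes (7.89% higher and 10.7% lower in the Acb). Besides Deptor these were Mlst8, higher in the Acb by 0.68 ± 0.20 (adjusted p = 0.019, edgeR), and Rheb, lower by 0.68 ± 0.19 (adjusted p = 0.017, edgeR). Mlst8 measured 25.2 ± 3.40 CPM (SD, n = 3) in the DS and 39.7 ± 3.40 CPM in the Acb, and Rheb 201 ± 42.2 and 124 ± 23.8 CPM. Both calls were lost without knockin Acb replicate 3 (adjusted p = 0.058 and 0.0564), which left Deptor as the 1 member called. That of Mlst8 was lost without knockin DS replicate 2 (adjusted p = 0.0915), and that of Rheb without knockin DS replicate 3 (adjusted p = 0.109) and with the trend on coding length removed (-0.33, adjusted p = 0.131). For the other members, log2 differences between the regions in lysates ranged from -0.32 (Rictor, knockin) to 0.15 (Tsc1, knockin), Eif4ebp1 aside.

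**Figure D5:**
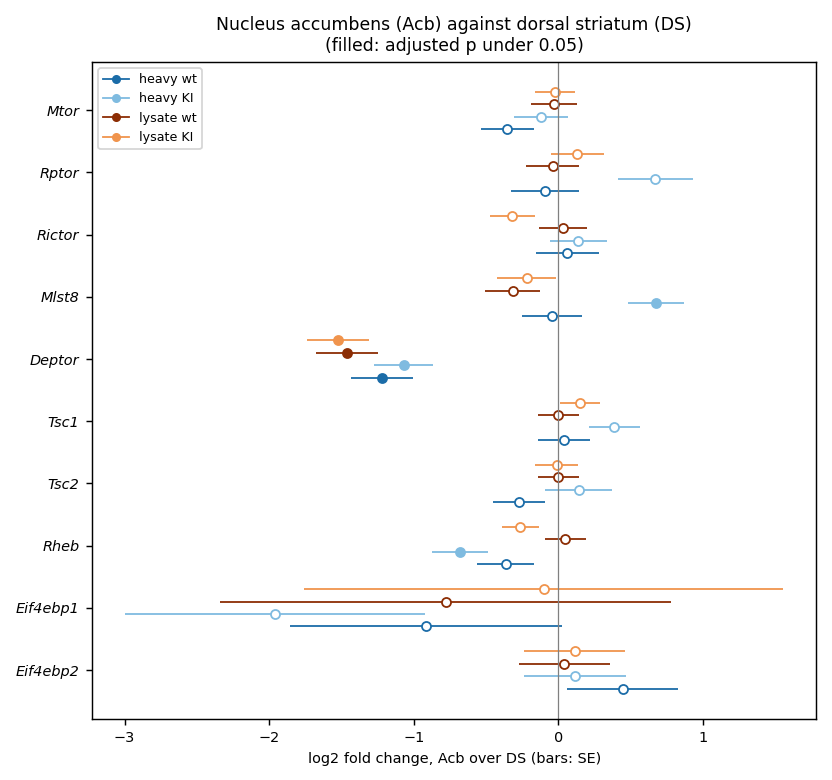
Log2 fold change of the 10 mRNAs in the Acb over the DS, with SE bars, for both kinds of RNA and both genotypes (n = 3 libraries a group). Filled points passed the test. Deptor is filled and between -1.07 and -1.52 in all 4 settings, and Mlst8 and Rheb are filled in knockin heavy polysomal fractions alone.

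Of 71 further genes of the pathway, 70 were in the table. In heavy polysomal fractions over lysates, 10 were higher and 12 lower in wild-type Acb (25.9% of all genes passed), 8 and 8 in knockin Acb (17.2%), 12 and 11 in wild-type DS (24.3%), and 13 and 11 in knockin DS (28.6%). In the cap-binding complex eIF4F, the cap-binding subunit Eif4e rose by 1.09 ± 0.14 in wild-type Acb and by 1.01 ± 0.15 in wild-type DS. The long scaffold Eif4g1 was lower at -1.24 ± 0.16 in wild-type Acb and -1.31 ± 0.16 in wild-type DS, and Eif4g3 stood at -1.22 ± 0.15 in wild-type Acb. In each of the 4 comparisons the insulin receptor substrate Irs2 was among the lowest of the list, from -1.32 ± 0.27 in knockin Acb to -2.20 ± 0.37 in knockin DS. The third subunit of the TSC complex, Tbc1d7, was higher by 1.18 ± 0.27 in wild-type DS, opposite in sign to Tsc2. All these values are from the fit that keeps the trend on coding length, and the part of length in them was not tested. With the trend removed, Tsc2 in wild-type DS stood at -0.05 (adjusted p = 0.91, edgeR).

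Between genotypes and in the 5 interaction tests, 0 of these 70 genes passed the edgeR test. That test called 0% to 0.122% of all genes between genotypes and 0% to 0.00611% in the interactions, so a count of 0 is near the background. DESeq2 called 6.72% of all genes in Acb heavy polysomal fractions, and its results for these 70 genes are not given here. Between regions, 2 were higher and 5 lower in the Acb in wild-type lysates (12.7% of all genes passed), 1 and 7 in knockin lysates (10.9%), 3 and 2 in wild-type heavy polysomal fractions (8.15%), and 9 and 15 in knockin heavy polysomal fractions (18.6%). The adaptor Grb10, an mTORC1 substrate, was higher in the Acb in all 4, from 0.92 ± 0.16 in wild-type lysates to 1.19 ± 0.18 in wild-type heavy polysomal fractions. Ddit4l, a relative of the mTORC1 inhibitor REDD1, was lower in the Acb in all 4 tests and stood at -1.33 ± 0.24 in wild-type lysates.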

How the data were processed

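The authors deposited 1 table of raw gene-level read counts for the 24 libraries, and all values derive from it. Per the labels and the methods, reads were aligned to mm10 with TopHat2 2.0.13 and Bowtie2 2.2.3 and counted with HTSeq 0.6.1p1 on the strand opposite to the read, without normalization. Depth was 9280589 to 34703044 assigned reads. Genes with at least 15 reads over the libraries of a comparison were tested with edgeR 4.0.16 (TMM, quasi-likelihood F test with legacy settings, R 4.3.3), adjusted over all genes by Benjamini-Hochberg with a threshold of 0.05. Interactions were fitted over the 12 libraries concerned, with 3 replicates a group throughout. Scripts were tested on simulated data. DESeq2 1.42.0, other filters and scalings, a fit of all libraries, removal of a loess trend on coding length (span 0.5), the lysate as replicate block and leaving out each replicate served as alternatives. Lengths came from GENCODE M21 by Entrez identifier (20427 of 24079 rows had a coding length) and positions from RefSeq. Figures used matplotlib 3.10.9. The members, gene lists, marker lists and the rule that names up to 3 other pathway genes per direction and comparison were chosen with earlier results of these data known. Per the methods, input RNA was kept from the same samples that were loaded on the gradients. The pairing of heavy polysomal fraction and lysate by number was read from the sample titles. Residuals within these 12 pairs correlated at -0.0376 to 0.0743. Replicates were pools of mice, whose number per pool differs between the methods, a figure legend and a supplementary table of the paper, and p-values measure the spread between pools.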

Additional observations from a re-analysis of the deposited data

How the results depend on the processing

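The fit with the lysate, or the replicate number, as replicate block gave the same counts of members called in all 17 comparisons (5, 4, 6 and 7 for heavy polysomal fractions over lysates in wild-type Acb, knockin Acb, wild-type DS and knockin DS) and changed no member's call, while the median of the 10 members in knockin Acb went from -0.82 to -0.53. The barely detected Eif4ebp1 was among the middle values that set the first of these medians. Replicates of the same number in the 2 genotypes had residual correlations of -0.294 to 0.319, 2 of 12 above 0.1, and in the 2 regions -0.255 to 0.217, 1 of 12 above 0.1. For knockin against wild-type on Acb heavy polysomes, DESeq2 and the fit of all 24 libraries each called 1 member, Rheb, against 0, and 6.72% and 4.68% of all genes against 0%. Removing the trend on coding length, alone or with the replicate block, gave 2 calls in place of 4 in knockin Acb, 4 in place of 6 in wild-type DS (Mtor, Rictor and Tsc2 lost, Mlst8 gained) and 4 in place of 7 in knockin DS (Mtor, Tsc1, Tsc2 and Rheb lost, Eif4ebp2 gained) for heavy polysomal fractions over lysates, and turned Tsc1 in knockin DS from -0.50 to 0.11 (0.11 also with the block), without a call. Alone, it gave 2 in place of 1 between regions in wild-type heavy polysomal fractions (Mtor added, -0.60), with 12.6% of all genes called against 8.15% and a median of all genes of -0.12. The cause was not tested. Leaving out 1 replicate at a time gave 2 to 5 calls in knockin Acb (2 without replicate 2, where Rptor and Tsc2 were lost and the share of all genes called went from 17.2% to 7.12%), 5 to 6 in knockin DS, 1 to 2 between regions in wild-type heavy polysomal fractions (Rheb added without wild-type DS replicate 2, 8.68% of all genes called) and 1 to 4 in knockin heavy polysomal fractions (1 without knockin Acb replicate 3, 13.1% of all genes called against 18.6%). The 4 Deptor calls between regions held under all 14 settings tried for each. With 3 replicates a group and 0 to 94 reads, Eif4ebp1 could not be compared.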

Other observations

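Ragulator, the lysosomal scaffold that anchors the Rag GTPases and mTORC1, is encoded by Lamtor1 to Lamtor5, and its mRNAs were singled out after their values had been seen. In knockin heavy polysomal fractions all 5 were lower in the Acb than in the DS, from -0.64 ± 0.20 (Lamtor3, adjusted p = 0.0278, edgeR) to -1.68 ± 0.24 (Lamtor4, adjusted p = 6.05e-05), while 10.7% of 16108 genes were lower there. Since the 5 were picked by their values, that share is no test of them. In the list of 10 Rag GTPase and Ragulator genes they came from, 6 were lower and 2 higher in this comparison. In wild-type heavy polysomal fractions the same 5 lay between -0.21 (Lamtor3) and 0.10 (Lamtor2) with no call. The test of the difference between genotypes passed for none of them, with adjusted p-values from 0.0705 (Lamtor4) to 0.543 (Lamtor3). Coding length moved with the knockin effect in Acb heavy polysomal fractions over all genes (Spearman's rho 0.41), and its part in these values was not tested.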
